A study of Mus musculus with 18 samples.

Results

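Hearts of mice that had ischemia-reperfusion surgery and decursin (IR+Decursin) were compared with hearts of mice that had sham surgery (SHAM), 6 libraries against 6. These are 12 of the 18 libraries of the series and include every library whose label reads IR+Decursin or SHAM. Mice were put into groups at random, 6 to a group, each library came from the total RNA of heart tissue, and the labels do not say which part of the heart was taken. By their labels, the animals of both groups were adult male wild-type C57BL/6 mice, killed on day 7 after surgery. The remaining 6 libraries (IR) came from mice of the same strain with ischemia-reperfusion and no decursin, and their values are set beside the results. Decursin is a pyranocoumarin from the root of Angelica gigas, and the labels state neither its dose nor how and when it was given. IR+Decursin differs from SHAM by both the injury and the drug, and in this comparison the effects of the injury and of the drug cannot be told apart. The labels also give each group a batch of its own, so batch and group cannot be told apart either.

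In ischemia-reperfusion, blood flow to a region of heart muscle is stopped and then restored, and part of the cardiomyocytes of that region die. Monocytes and macrophages clear the dead tissue over the following days, and fibroblasts divide, turn on matrix genes and lay down a collagen scar. Adult cardiomyocytes draw most of their energy from mitochondrial oxidation of fatty acids. The title of the series names heme-induced ferroptosis, an iron-dependent cell death in which membrane lipids are oxidised, so genes of heme, iron and lipid peroxide handling are described as groups of their own.

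The 12 libraries held 27.5 to 33.4 M counts in SHAM and 31.0 to 35.0 M in IR+Decursin, and 18435 to 19906 genes had counts. Of 25731 gene symbols, 15088 passed the filter on low counts and were tested. Levels are given as CPM, counts scaled to library size with a factor for library make-up. The heart label held in every library: Myh6, the main myosin heavy chain of the adult mouse ventricle, lay at 15476 to 21206 CPM in SHAM and at 10749 to 19656 CPM in IR+Decursin. The lung surfactant gene Sftpa1 and the airway gene Scgb1a1 had at most 2 counts over the 6 libraries of a group. Xist, which silences an X chromosome in female cells, had 14219 counts in IR+Decursin 2 and at most 8 in the other 11, and the Y-linked Ddx3y had 0 in IR+Decursin 2. That library does not match the male sex in its label. The gene model Gm26917 took 7.54% of the counts of IR+Decursin 6 and at most 0.166% in the other 11. Differences are log2 fold changes ± standard error from a fit of all genes, and a gene is said to have risen or fallen where its adjusted p is under 0.05.

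Against SHAM, 2647 genes rose in IR+Decursin, 17.5% of those tested, and 1774 fell, 11.8%. The rises were the larger changes: 1138 genes (7.54%) rose at least 2-fold and 76 (0.504%) fell at least 2-fold. The genes that rose included those of scar matrix, fibroblasts, macrophages, complement, lysosomes and cell division, and those that fell included genes of mitochondrial energy production and contraction. In these bulk samples, more or fewer cells of a type and more or less RNA per cell cannot be told apart. The direction of small changes depends on how libraries are scaled. With scaling to the total count alone, the median of all genes moved by 0.22 on the log2 scale, and 4781 genes were higher and 377 lower, so 92.7% of calls were higher against 59.9%. With scaling factors computed without mitochondrial, haemoglobin and Gm26917 counts, 3354 were higher and 832 lower, or 80.1% higher.

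The 6 IR+Decursin hearts differed among themselves more than the 6 SHAM hearts. The median over genes of the standard deviation of log2(CPM + 1) was 0.162 in SHAM and 0.204 in IR+Decursin. The standard deviation was larger in IR+Decursin than in SHAM for 9885 genes (65.5%). Injured hearts without the drug, the IR libraries, had a median of 0.186, which lies between those values. A median spread above that of SHAM was therefore not limited to the decursin group. On the first principal component of the 12 libraries, which held 57.9% of the variance, SHAM lay between -27.3 and -20.1. IR+Decursin 1 lay at 55.6, 4 at 41.0, 3 at 34.9, 2 at 24.8, 5 at 5.32 and 6 at -16.8. The genes that rose or fell were called with these same 6 libraries, so high shares among them are in part set by the calls. Of the genes that rose, 91.6% to 95.2% were above the SHAM range in libraries 1 to 4, 73.3% in library 5 and 38.3% in library 6. Of the genes that fell, 83.6% to 91.3% were below the SHAM range in libraries 1 to 4, 79.2% in library 5 and 41.5% in library 6. Most genes that changed therefore overlapped: 3337 of the 4421 had at least 1 IR+Decursin library that was not beyond the SHAM range, while 658 that rose and 426 that fell did not overlap. Over all tested genes, called or not, 670 (4.44%) had every IR+Decursin library above SHAM and 438 (2.9%) had every library below, 1108 (7.34%) in all. Without IR+Decursin 6, 2972 genes rose and 2158 fell, and without IR+Decursin 1, 2169 rose and 1292 fell. Without the 3 libraries of the series with over 1000 Xist counts, IR+Decursin 2 among them, 2350 rose and 1356 fell.

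**Figure D1:**
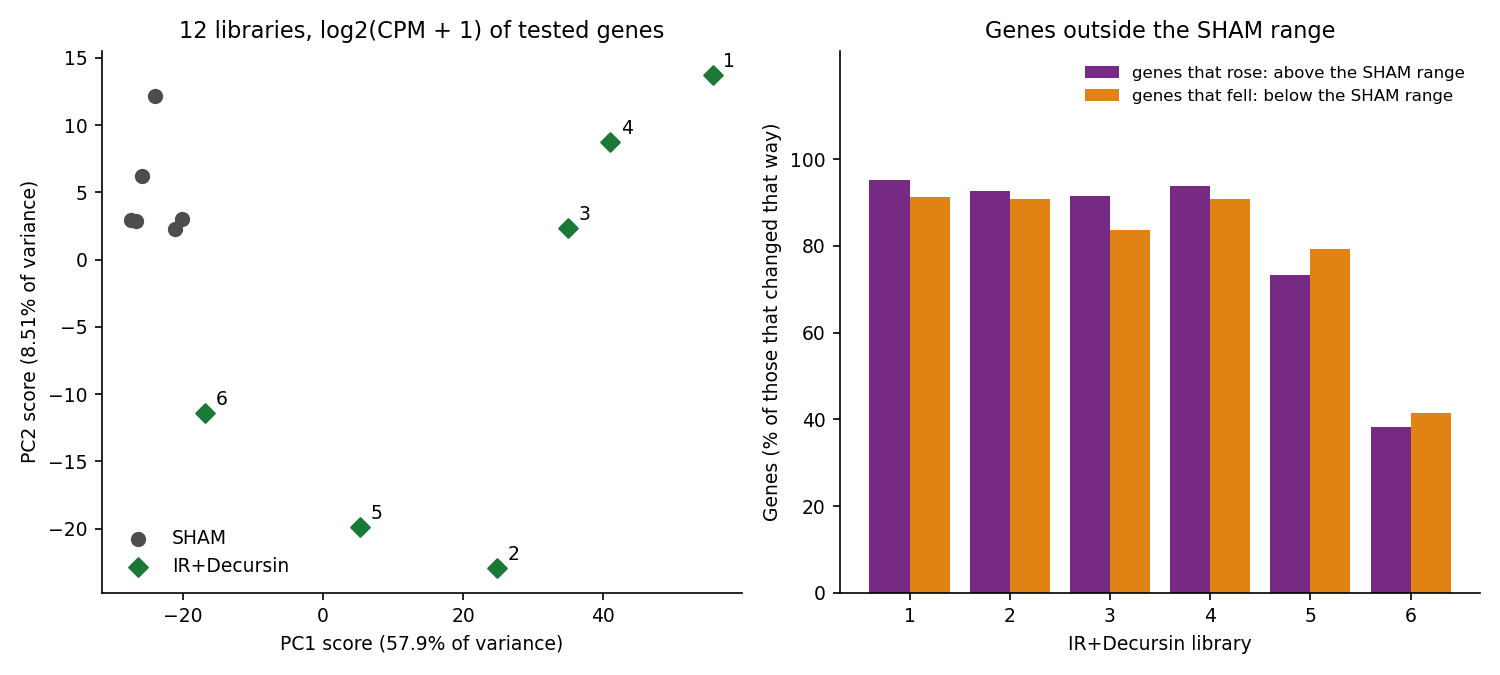
Left, first and second principal component scores of the 12 libraries from log2(CPM + 1) of the tested genes, with the IR+Decursin libraries numbered. Right, for each IR+Decursin library, the share in percent of genes that rose and lay above the SHAM range and of genes that fell and lay below it. Those genes were called with the same libraries, so the shares are in part set by the calls. The SHAM libraries sit together between -27.3 and -20.1 on the first component, and IR+Decursin 6 lies nearest to them with 38.3% and 41.5%.

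The largest rises among genes whose groups did not overlap included wound matrix and macrophage genes. Sprr1a, a stress-induced gene of the cornified envelope family, lay at 0 to 0.241 CPM in SHAM (median 0.0720) and 0.311 to 29.7 CPM in IR+Decursin (median 7.36). Every IR+Decursin library was above every SHAM library, with library 1 highest and library 6 lowest (log2 fold change 6.84 ± 1.13, adjusted p = 0.000735). Without IR+Decursin 1 the difference was 6.20, and without SHAM 6 it was 7.44. Tenascin C (Tnc), a matrix glycoprotein of healing tissue, lay at 0.971 to 2.45 CPM in SHAM (median 2.09) and 3.42 to 325 CPM in IR+Decursin (median 107) (log2 fold change 6.18 ± 0.93, adjusted p = 0.000475). The lowest IR+Decursin value, 3.42 CPM, was library 6, and the other 5 lay at 45.2 CPM or more. P4ha3, a subunit of the enzyme that hydroxylates prolines of collagen, lay at 0 to 0.173 CPM in SHAM (median 0.0873) and 0.194 to 12.1 CPM in IR+Decursin (median 5.64) (log2 fold change 6.00 ± 1.0, adjusted p = 0.000696). Timp1, an inhibitor of matrix metalloproteases, lay at 2.06 to 4.71 CPM in SHAM (median 3.0) and 4.90 to 108 CPM in IR+Decursin (median 59.6) (log2 fold change 4.19 ± 0.55, adjusted p = 0.000253). Timp1 in library 6 (4.90 CPM) was just above the highest SHAM library. Galectin 3 (Lgals3), a lectin of activated macrophages, lay at 1.87 to 3.77 CPM in SHAM (median 3.47) and 9.21 to 102 CPM in IR+Decursin (median 31.5) (log2 fold change 3.60 ± 0.54, adjusted p = 0.000438). Acp5, an acid phosphatase of macrophages and osteoclasts, rose by 4.40 ± 0.77, and the orphan receptor gene Gpr176 by 4.75 ± 0.60. The macrophage genes Gpnmb (3.77) and Mmp12 (3.62) rose as well, with IR+Decursin 1 at 85 and 19.8 CPM. Without that library, Gpnmb differed by 3.0 and Mmp12 by 2.92. Mmp12 was not called with limma's quality weights for libraries.

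**Figure D2:**
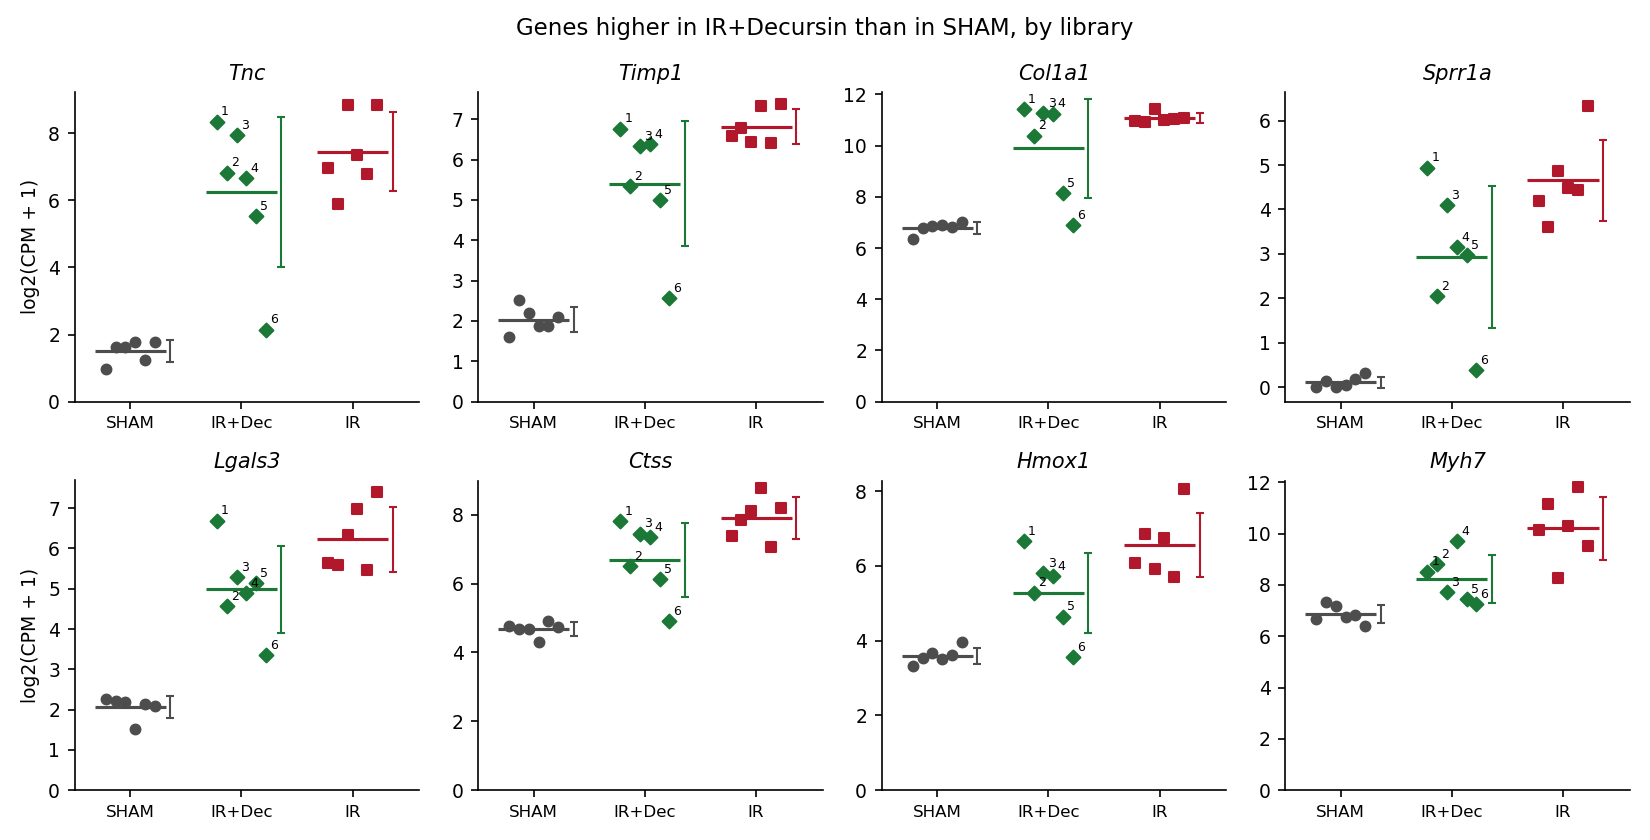
Level of 8 genes as log2(CPM + 1) in each library of SHAM, IR+Decursin (numbered 1 to 6) and IR. Lines are group means and bars are standard deviations over 6 libraries. IR+Decursin 6 is the lowest of its group in all 8 panels. It lies near the SHAM libraries except for Lgals3, where it stands clear above them. Sprr1a and Tnc are among the genes with no overlap between SHAM and IR+Decursin.

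Matrix genes rose broadly. Of 31 genes for collagens and their processing, 23 rose and none fell, with a median log2 fold change of 1.45, against shares of 17.5% and 11.8% and a median of -0.00 over all tested genes. Those shares and that median are the background for each list that follows. For list counts with total-count scaling, the background was 4781 genes higher and 377 lower of 15088 tested, with a median of 0.22. Col1a1, the main chain of fibrillar type I collagen, lay at 80.4 to 128 CPM in SHAM (median 114) and 118 to 2769 CPM in IR+Decursin (median 1892) (log2 fold change 3.84 ± 0.58, adjusted p = 0.000447). Libraries 1 to 4 lay at 1341 CPM or more, library 5 at 279.5 CPM, and library 6 at 118 CPM, inside the SHAM range. Col3a1, the type III chain, lay at 170.3 to 261 CPM in SHAM (median 209) and 217 to 4418 CPM in IR+Decursin (median 2979) (log2 fold change 3.61 ± 0.52, adjusted p = 0.000357), with library 6 again inside the SHAM range. Lox, the oxidase that crosslinks collagen and elastin, lay at 2.75 to 6.51 CPM in SHAM (median 3.87) and 2.99 to 229 CPM in IR+Decursin (median 100.2) (log2 fold change 4.52 ± 0.75, adjusted p = 0.00075). Pcolce, which speeds the cleavage of procollagen, rose with no overlap of the groups (log2 fold change 0.91 ± 0.13, adjusted p = 0.000211). The basement membrane chains Col4a1 (0.51) and Col4a2 (0.41) and the lysyl hydroxylases Plod1 (0.12) and Plod2 (0.36) were among the 8 that did not pass the test.

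Of 30 matrix glycoproteins and proteoglycans, 26 rose and none fell (median 1.10). Every IR+Decursin library was above SHAM for 10 of them, against 4.44% of all tested genes. Fibronectin (Fn1) lay at 55.2 to 80.2 CPM in SHAM (median 66.3) and 99.1 to 1291 CPM in IR+Decursin (median 675) (log2 fold change 3.25 ± 0.54, adjusted p = 0.000696), with every IR+Decursin library above SHAM. The elastic fibre genes Efemp2 (1.44) and Emilin1 (1.37), the thrombospondin Thbs3 (1.11) and Ecm1 (1.07) rose with small errors of 0.15 to 0.21. The small proteoglycans Dcn (0.22) and Fmod (-0.52) and the laminin chain Lama2 (-0.10) did not pass the test. Among 26 genes for matrix proteases or protease inhibitors, 18 rose and none fell (median 1.19). Mmp14, a membrane-bound collagenase, lay at 9.64 to 16.5 CPM in SHAM (median 11.4) and 16.8 to 132 CPM in IR+Decursin (median 83.8) (log2 fold change 2.65 ± 0.37, adjusted p = 0.000309). The groups did not overlap for Mmp14, for the gelatinase Mmp2 (0.81 ± 0.12) or for the inhibitor Timp2 (0.55 ± 0.07).

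Genes of signals that act on fibroblasts rose in part. Of 20 genes of TGF-beta signalling, a main driver of matrix production, 9 rose and none fell (median 0.43), and 16 rose with total-count scaling. Tgfb1, the ligand, lay at 21.6 to 25.9 CPM in SHAM (median 22.7) and 30.3 to 38.4 CPM in IR+Decursin (median 36.7) (log2 fold change 0.60 ± 0.09, adjusted p = 0.00034). Its receptor gene Tgfbr2 lay at 56.6 to 75.4 CPM in SHAM (median 60.6) and 78.7 to 115 CPM in IR+Decursin (median 109) (log2 fold change 0.74 ± 0.09, adjusted p = 0.000156). Neither gene's groups overlapped. Ltbp3, which holds latent TGF-beta in the matrix, rose by 0.72 ± 0.09, and Tgfbi, a matrix protein induced by TGF-beta, by 1.23 ± 0.23. The inhibitory Smad genes Smad6 (0.44) and Smad7 (0.48) did not pass the test. Of 22 tested genes of Wnt and insulin-like growth factor signalling, 11 rose and none fell (median 0.42). Sfrp2, a secreted Wnt antagonist, lay at 2.96 to 5.19 CPM in SHAM (median 3.73) and 3.34 to 65.7 CPM in IR+Decursin (median 37.7) (log2 fold change 3.09 ± 0.60, adjusted p = 0.00183). The Wnt receptor Fzd1 rose by 0.97 ± 0.16, and Igfbp4, a carrier of insulin-like growth factors, by 0.58 ± 0.11. The Wnt ligands Wnt5a (-0.12), Wnt9a (0.07) and Wnt11 (-0.06) did not pass.

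Fibroblast markers rose. Of 18 markers of activated fibroblasts, 10 rose (median 1.37), and the mean log2(CPM + 1) of the list was 3.77 to 4.13 (median 3.94) in SHAM and 4.01 to 6.68 (median 5.73) in IR+Decursin. Library 6 was the lowest at 4.01, inside the SHAM range, and the other 5 were above it. Cthrc1, a marker of scar-forming fibroblasts, lay at 0.0777 to 0.767 CPM in SHAM (median 0.336) and 0.389 to 73.6 CPM in IR+Decursin (median 35.4) (log2 fold change 6.46 ± 1.10, adjusted p = 0.000899), and 5 of 6 libraries were above SHAM. Its call was lost with limma's quality weights. The smooth muscle actin Acta2 (0.41) and the markers Fap (0.54) and Meox1 (0.77) did not pass the test. Of 15 markers of resident fibroblasts, 9 rose and none fell (median 0.41), with levels of 6.12 to 6.38 (median 6.22) in SHAM and 6.45 to 6.75 (median 6.68) in IR+Decursin. Pdgfra, the receptor that marks cardiac fibroblasts, lay at 39.1 to 48.4 CPM in SHAM (median 42.3) and 50 to 78.8 CPM in IR+Decursin (median 72) with no overlap (log2 fold change 0.67 ± 0.11, adjusted p = 0.00043). The matrix proteins Dpt (0.56 ± 0.10) and Lum (0.80 ± 0.17) and the surface marker Cd248 (1.09 ± 0.19) also rose.

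Macrophage markers rose, of cells recruited from the blood and of resident cells. Of 17 markers of recruited macrophages and monocytes, 16 rose, and Fabp5 (0.41) did not pass (median 2.44). The mean level of the list was 2.32 to 2.75 (median 2.65) in SHAM and 2.89 to 5.83 (median 4.82) in IR+Decursin, and all 6 IR+Decursin libraries were above SHAM. Ccr2, the receptor by which monocytes follow chemokine into tissue, lay at 1.99 to 6.29 CPM in SHAM (median 3.15) and 6.53 to 43.1 CPM in IR+Decursin (median 22.1) (log2 fold change 2.73 ± 0.45, adjusted p = 0.000713). Trem2, a lipid receptor of wound macrophages, lay at 1.66 to 3.23 CPM in SHAM (median 2.10) and 3.42 to 19.9 CPM in IR+Decursin (median 14.1) (log2 fold change 2.55 ± 0.35, adjusted p = 0.000266). Cathepsin S (Ctss), a lysosomal protease of macrophages, lay at 18.6 to 28.8 CPM in SHAM (median 25.2) and 29.3 to 223 CPM in IR+Decursin (median 126) (log2 fold change 2.33 ± 0.40, adjusted p = 0.000851). The groups did not overlap for these 3 genes, although library 6 lay at 6.53, 3.42 and 29.3 CPM, close to the highest SHAM values. Of 15 markers of resident macrophages, 11 rose and none fell (median 0.88). C1qa, C1qb and C1qc, which encode the chains of the first complement component and are made by tissue macrophages, rose by 1.06 ± 0.18, 1.23 ± 0.21 and 1.10 ± 0.18. The growth factor receptor Csf1r rose by 0.91 ± 0.17. The long-lived resident markers Lyve1 (0.47), Timd4 (-0.22) and Cbr2 (0.27) did not pass the test.

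Other leukocyte markers were low and changed less firmly. Of 11 tested neutrophil markers, 5 rose (median 1.94): Lcn2, Csf3r, Mmp9, Trem1 and Il1r2. Csf3r, the receptor for granulocyte colony-stimulating factor, lay at 0.622 to 4.72 CPM in SHAM (median 1.15) and 1.13 to 14.1 CPM in IR+Decursin (median 9.72) (log2 fold change 2.06 ± 0.58, adjusted p = 0.0142), and 4 of 6 libraries were above SHAM. S100a8 (0.84) and S100a9 (0.90), the abundant neutrophil proteins, did not pass, and Ly6g and Ngp were too low to test. Without SHAM 5, whose values were the highest of SHAM, Mmp9 differed by 3.98 against 3.39 and Trem1 by 3.65 against 2.99. Lcn2 (2.73) and Mmp9 were not called with limma's quality weights. Of 9 tested T and natural killer cell markers, 7 rose (median 1.85), all of them low except Thy1, which fibroblasts also express. Cd3g, a chain of the T cell receptor complex, lay at 0.0344 to 0.228 CPM in SHAM (median 0.0547) and 0.278 to 0.552 CPM in IR+Decursin (median 0.396) (log2 fold change 2.23 ± 0.40, adjusted p = 0.00075). Its groups did not overlap, and without SHAM 5 it differed by 2.88. The cytokine receptor gene Il7r rose by 2.61, or by 1.78 without IR+Decursin 1. Without SHAM 2 or without IR+Decursin 1, 3 of the 9 rose, and Cd3e lost its call without IR+Decursin 1 or SHAM 1, 2 or 4.

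Of 12 tested dendritic cell and class II genes, Itgax (2.27) and Flt3 (2.82) rose (median 0.67), and the class II presentation genes H2-Aa, H2-Ab1, H2-Eb1 and Cd74 did not pass. With total-count scaling 4 of the 12 rose. Of 8 tested B cell markers, Cd22 rose, by 2.17, and without IR+Decursin 1 it did not pass (median 0.05). Of 5 tested mast cell markers, the protease genes Cma1 (1.32) and Tpsb2 (1.09) rose (median 1.01). Tpsb2 lost its call without IR+Decursin 4, and Cma1 without any 1 of 9 libraries: SHAM 1 to 5 and IR+Decursin 1 to 4. Of 7 erythroid genes, 2 rose, Slc4a1 among them (median 0.68), and 1 rose without any 1 of SHAM 3 to 6 or IR+Decursin 1, 2, 4 or 5, and the 4 globin genes, at 0.55 to 0.68, did not pass. Slc4a1, the anion exchanger of red cells, lay at 0.0344 to 0.816 CPM in SHAM (median 0.265) and 0.233 to 5.76 CPM in IR+Decursin (median 2.95) (log2 fold change 3.29 ± 0.76, adjusted p = 0.00431).

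Inflammatory signals rose. Of 27 tested chemokines and cytokines, 19 rose and none fell (median 1.55). Ccl8, which draws monocytes, lay at 1.17 to 3.85 CPM in SHAM (median 1.37) and 4.28 to 37.3 CPM in IR+Decursin (median 21.8) (log2 fold change 3.36 ± 0.50, adjusted p = 0.000432), and its groups did not overlap. Cxcl16, which binds a receptor on T cells, lay at 9.30 to 10.7 CPM in SHAM (median 9.44) and 12 to 40.4 CPM in IR+Decursin (median 25.3) (log2 fold change 1.38 ± 0.24, adjusted p = 0.000696). The interferon-induced Cxcl10 lay at 0.276 to 0.894 CPM in SHAM (median 0.531) and 0.494 to 19.6 CPM in IR+Decursin (median 6.75) (log2 fold change 3.84 ± 0.71, adjusted p = 0.00125). The groups did not overlap for Cxcl16, and library 5 overlapped with SHAM for Cxcl10. Interleukin 6 (Il6) had 1 count over the SHAM libraries and 233 over the IR+Decursin libraries. With library sizes taken into account the ratio was 190-fold, with a 95% counting interval of 33.8 to 7533, and it covers counting error only. Il6 lay at 0.0389 CPM in the lowest IR+Decursin library and at 2.89 CPM in the highest, and its call held without each library, with a difference of 6.16 without IR+Decursin 1 and 8.14 without SHAM 2 against 6.77. With so few SHAM counts these fitted differences depend on the prior count. Tumour necrosis factor (Tnf, 0.08), interleukin 1 beta (Il1b, 1.45) and the neutrophil chemokines Cxcl1 (1.55) and Cxcl2 (2.97) did not pass the test.

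Of 18 complement genes, 16 rose and none fell (median 1.52). For 6 of them every IR+Decursin library was above SHAM, against 4.44% of all tested genes. Itgb2, the shared chain of leukocyte integrins and complement receptors, lay at 7.29 to 10.5 CPM in SHAM (median 9.20) and 12.5 to 49.5 CPM in IR+Decursin (median 33.4) (log2 fold change 1.84 ± 0.27, adjusted p = 0.000385). The protease gene C1ra, which starts the classical pathway, rose by 1.03 ± 0.18, with no overlap, though its reads may be shared with its near-identical copy C1rb. The late component C7 (0.26) did not pass. Of 21 interferon response genes, 12 rose and none fell (median 0.58). Irf7, a transcription factor of the interferon response, lay at 12.1 to 18.4 CPM in SHAM (median 14.6) and 22.8 to 53.8 CPM in IR+Decursin (median 36.3) with no overlap (log2 fold change 1.33 ± 0.27, adjusted p = 0.00193), and the nucleic acid sensor Zbp1 rose by 2.24 ± 0.47. Oas1a (1.16 ± 0.28) and Ifit1 (1.10 ± 0.26) rose with 4 of 6 libraries above SHAM.

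Among 19 inflammasome and necroptosis genes, 12 rose and none fell (median 0.89). Mlkl, which breaks the plasma membrane in necroptosis, lay at 2.62 to 4.13 CPM in SHAM (median 3.77) and 4.90 to 12.2 CPM in IR+Decursin (median 6.87) with no overlap (log2 fold change 1.06 ± 0.21, adjusted p = 0.00153), and its upstream kinase Ripk3 rose by 1.26 ± 0.26. The ATP receptor P2rx7 rose by 0.89 ± 0.17 and the adaptor Myd88 by 0.72 ± 0.15. The pore-forming Gsdmd (0.38) and the adaptor Pycard (0.20) did not pass. Of 25 lysosomal genes, 18 rose and none fell (median 0.64). For 10 of them every IR+Decursin library was above SHAM, against 4.44% of all tested genes. Progranulin (Grn) lay at 63.3 to 82.1 CPM in SHAM (median 77.4) and 97.5 to 239 CPM in IR+Decursin (median 176) (log2 fold change 1.22 ± 0.17, adjusted p = 0.000224). Laptm5 of leukocyte lysosomes lay at 20.4 to 28.1 CPM in SHAM (median 22.5) and 30.9 to 88.5 CPM in IR+Decursin (median 71.5) (log2 fold change 1.54 ± 0.22, adjusted p = 0.000266). Cathepsin Z (Ctsz) lay at 30.2 to 34.2 CPM in SHAM (median 32.2) and 38.7 to 94.7 CPM in IR+Decursin (median 71.3) (log2 fold change 1.12 ± 0.17, adjusted p = 0.000373). In these 3 genes every IR+Decursin library was above SHAM. The general lysosomal membrane proteins Lamp1 (0.13) and Lamp2 (0.14) and the regulator Tfeb (0.01) did not pass.

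Cell division genes rose. Of 27 genes of DNA replication and mitosis, 24 rose and none fell (median 1.73), while Pcna (0.08), Mcm7 (0.33) and Ccnd1 (0.14) did not pass. The mean level of the list was 1.82 to 2.85 (median 2.15) in SHAM and 2.25 to 3.98 (median 3.27) in IR+Decursin. SHAM 6 lay high, at 2.85, and 4 of 6 IR+Decursin libraries were above it. Cyclin B1 (Ccnb1), which drives entry into mitosis, lay at 0.182 to 1.68 CPM in SHAM (median 0.488) and 0.816 to 10.6 CPM in IR+Decursin (median 5.10) (log2 fold change 3.02 ± 0.57, adjusted p = 0.00136). Ube2c, an enzyme of the anaphase-promoting complex, lay at 0.584 to 1.89 CPM in SHAM (median 0.709) and 1.44 to 8.86 CPM in IR+Decursin (median 4.48) (log2 fold change 2.23 ± 0.39, adjusted p = 0.00075). Mcm3, part of the replication helicase, rose by 0.81 ± 0.16, and the mitotic kinase Aurka by 1.63 ± 0.36. For each of these 4 genes, 5 of 6 IR+Decursin libraries were above the SHAM range.

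Mesothelial markers, which mark the outer lining of the heart and of the chest cavity, rose, several of them from near 0. Of 10 tested epicardium and mesothelium markers, 8 rose and none fell (median 3.90). The mean level was 0.47 to 0.61 (median 0.53) in SHAM and 0.70 to 2.25 (median 1.35) in IR+Decursin, and all 6 IR+Decursin libraries were above SHAM. Library 2 was highest here, and library 5 rather than 6 was lowest. Mesothelin (Msln) lay at 0 to 0.161 CPM in SHAM (median 0.0367) and 0.0309 to 5.52 CPM in IR+Decursin (median 1.57) (log2 fold change 5.21 ± 1.04, adjusted p = 0.00185). Aldh1a2, which makes retinoic acid, lay at 3.82 to 7.13 CPM in SHAM (median 5.53) and 6.10 to 28.5 CPM in IR+Decursin (median 25.8) (log2 fold change 2.05 ± 0.29, adjusted p = 0.000314). Aldh1a2 in library 6 (6.10 CPM) lay far under the other 5. Upk3b rose by 3.86, with its call lost under limma's quality weights, and Krt19 by 3.94, or by 3.28 without IR+Decursin 2. Wt1, the transcription factor of the epicardium, did not pass (0.64).

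Few vascular markers passed the test. Of 18 endothelial markers, Plvap and Vwf rose and none fell, with a median of -0.10. With total-count scaling 4 rose and the median turned to 0.11. Plvap, a protein of the diaphragms of leaky capillaries, lay at 5.87 to 10.4 CPM in SHAM (median 7.30) and 9.69 to 27.7 CPM in IR+Decursin (median 21.8) (log2 fold change 1.36 ± 0.21, adjusted p = 0.000378), and 5 of 6 libraries were above SHAM. Von Willebrand factor (Vwf) lay at 47 to 88.3 CPM in SHAM (median 64.9) and 87.3 to 117 CPM in IR+Decursin (median 95.1) (log2 fold change 0.56 ± 0.15, adjusted p = 0.00842). The pan-endothelial Pecam1 (0.10) and Cdh5 (0.01) did not pass the test. Of 13 markers of smooth muscle and pericytes, Mcam rose, by 0.47 ± 0.15, and it did not pass without IR+Decursin 1 (median 0.14). With total-count scaling 4 of the 13 rose, with a median of 0.36. Without IR+Decursin 6, 2 members of that list fell, and without IR+Decursin 5 or 6, 1 endothelial marker fell. Of 20 hypoxia and angiogenesis genes, Vegfd, Angpt2, Car9 and Ankrd37 rose (median 0.04). Vegfd, a growth factor of lymphatic vessels, lay at 1.53 to 3.26 CPM in SHAM (median 2.25) and 3.42 to 9.82 CPM in IR+Decursin (median 7.21) with no overlap (log2 fold change 1.56 ± 0.23, adjusted p = 0.00027). Angpt2, which loosens vessels, rose by 0.79 ± 0.22 and Car9 by 2.01, or by 2.66 without SHAM 2. Ankrd37 (0.67) lost its call without any 1 of 8 libraries: SHAM 1 to 5 and IR+Decursin 1, 2 and 5. Vegfa (-0.19) and Hif1a (0.36) did not pass.

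Markers of other tissues that a heart sample can carry changed in few members. Among 8 tested nerve and Schwann cell markers, the myelin genes Mbp (1.36 ± 0.24) and Cnp (0.50 ± 0.11) rose (median 0.03). Among 7 tested cartilage-like markers Sox9 rose, by 1.63 ± 0.35 (median -0.38). None of 3 tested adipocyte markers passed the test. Of 6 tested skeletal muscle markers, Ckm fell, which heart muscle also expresses. Napsa, the only tested gene of the lung list, rose by 2.81 ± 0.45 with Sftpa1 and Scgb1a1 at or near 0. No atrial marker passed the test among 6, but library 6 stood apart. The mean level of the atrial list was 6.23 in IR+Decursin 6, against 4.09 to 4.91 (median 4.24) in SHAM and 3.48 to 4.56 in the other 5, and IR 2 lay at 6.03. Its atrial myosin light chains Myl7 and Myl4 were at 251 and 348 CPM, against at most 58.9 and 76.1 in SHAM. Without that library, the list's median was -0.62 against 0.76. The part of atrial tissue in the other values of library 6 was not tested.

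**Figure D3:**
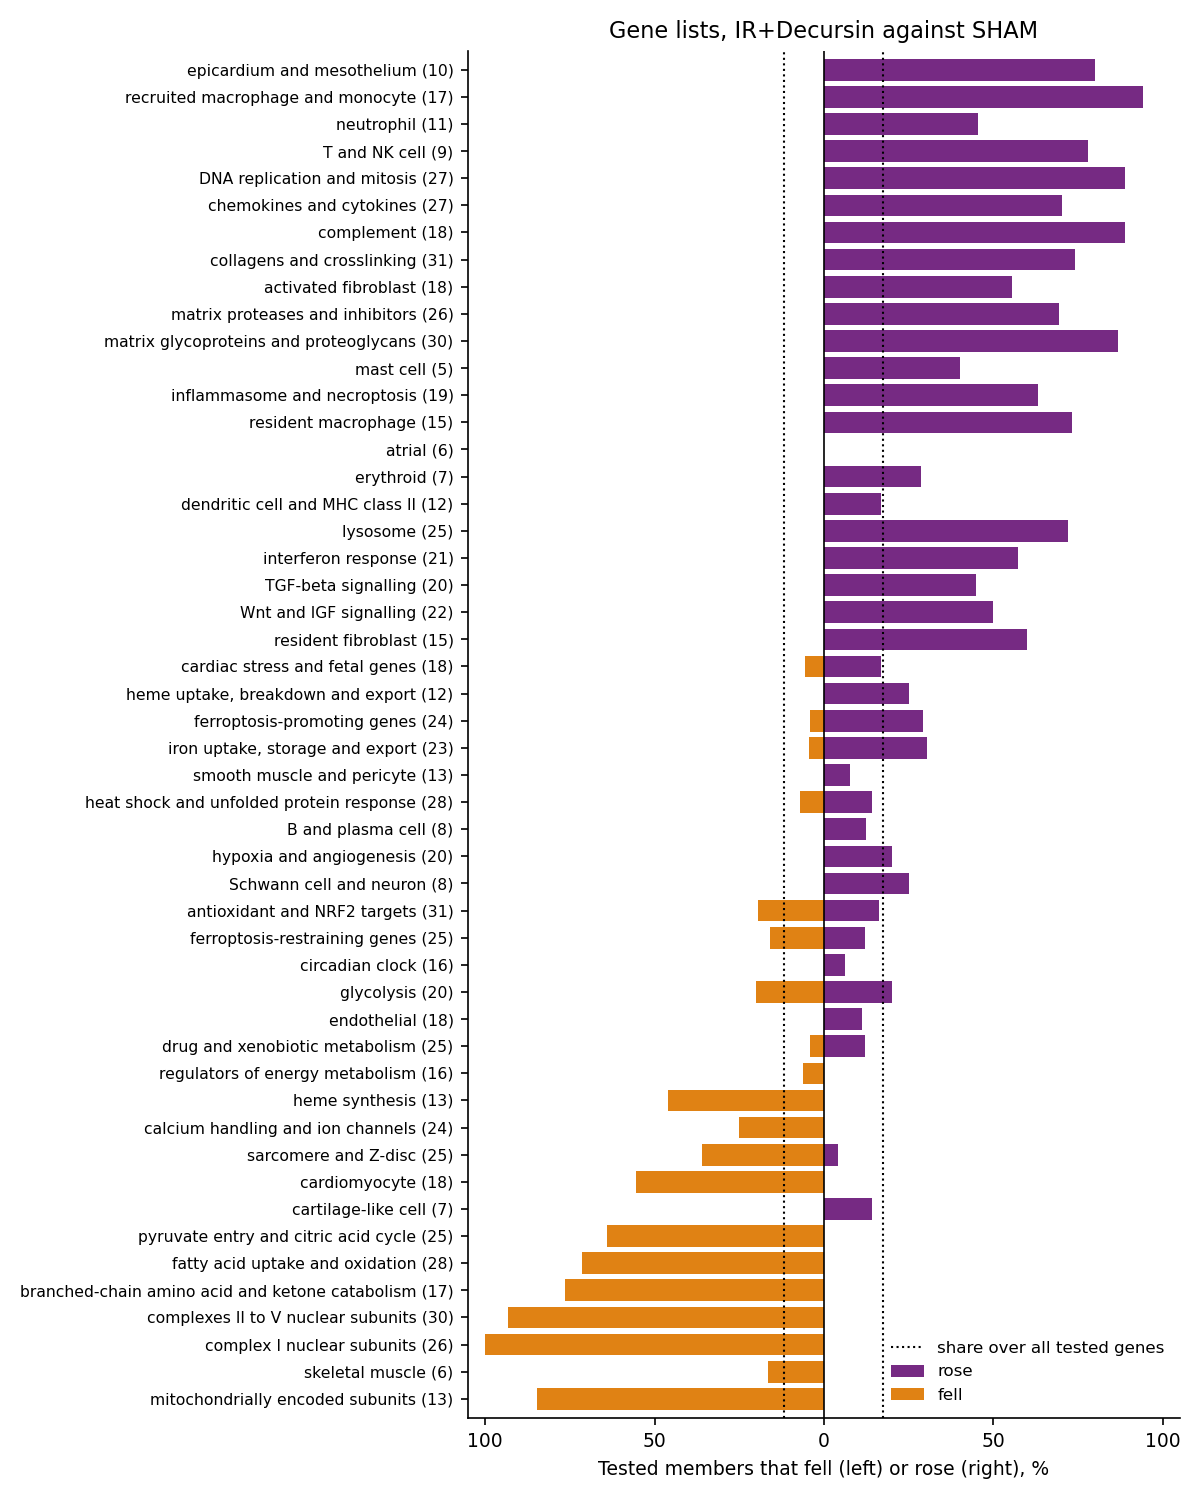
Share in percent of the tested members of each list that rose (right) or fell (left) in IR+Decursin against SHAM, ordered by median log2 fold change, with the number tested in brackets. Lists with fewer than 5 tested members are left out. Dotted lines mark the shares over all tested genes, 17.5% and 11.8%. Matrix, macrophage, complement and cell division lists reach far to the right, and the respiratory chain lists reach far to the left.

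Cardiomyocyte genes fell by small amounts. Of 18 cardiomyocyte markers, 10 fell and none rose (median -0.37), and 6 fell without IR+Decursin 1 or without 4, and 5 with total-count scaling. The mean level was 12.08 to 12.27 (median 12.16) in SHAM and 11.39 to 12.14 (median 11.79) in IR+Decursin, with library 6 inside the SHAM range and the other 5 below it. Phospholamban (Pln), which brakes the calcium pump, lay at 6527 to 7992 CPM in SHAM (median 7443) and 4953 to 6348 CPM in IR+Decursin (median 5307) with no overlap (log2 fold change -0.43 ± 0.09, adjusted p = 0.00229). Ckmt2, the mitochondrial creatine kinase, lay at 2300.3 to 3110.1 CPM in SHAM (median 2782) and 1298 to 2282 CPM in IR+Decursin (median 1682) (log2 fold change -0.67 ± 0.15, adjusted p = 0.00252) and also did not overlap. Myoglobin (Mb), the oxygen store of the muscle cell, fell by 0.55 ± 0.15 (adjusted p = 0.00894). The muscle creatine kinase Ckm (-0.60) lost its call without IR+Decursin 1, IR+Decursin 4 or SHAM 1, and with total-count scaling. Myh6 (-0.25 ± 0.15, adjusted p = 0.233), titin (Ttn, -0.31) and the ryanodine receptor Ryr2 (-0.23) did not pass.

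Of 25 sarcomere and Z-disc genes, 9 fell and Myh7 rose (median -0.28), and 4 fell with total-count scaling and 16 without IR+Decursin 6 and IR 1. The ventricular myosin light chain Myl2 lay at 7558 to 10533 CPM in SHAM (median 9435) and 3844 to 7851 CPM in IR+Decursin (median 5793). Its partner Myl3 lay at 3749 to 5114 CPM in SHAM (median 4280.3) and 1703 to 3919 CPM in IR+Decursin (median 2919). They fell by 0.64 ± 0.18 and 0.63 ± 0.16, with library 6 inside the SHAM range. Myoz2, a Z-disc protein that binds calcineurin, fell by 0.60 ± 0.13, and Csrp3, a Z-disc sensor of stretch, by 0.50 ± 0.13. Desmin (Des, 0.05) and filamin C (Flnc, 0.07) did not pass. Of 24 genes of calcium handling and ion channels, 6 fell and none rose (median -0.24), but with total-count scaling 3 rose and 2 fell, and without IR+Decursin 6 and IR 1, 12 fell. Triadin (Trdn), Asph and the calcium channel subunit Cacna2d1 fell by 0.43, 0.36 and 0.42, and Asph and Cacna2d1 lost their calls with total-count scaling. The calcium pump Atp2a2 (-0.29) and the gap junction gene Gja1 (-0.00) did not pass.

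Few stress and fetal genes of the heart passed the test. Of 18, Myh7, Gdf15 and Fhl1 rose and Csrp3 fell (median 0.34), and with total-count scaling 5 rose and 1 fell. Neither share in the main fit was above that of all tested genes, 17.5% and 11.8%. Myh7, the slow myosin heavy chain of the fetal ventricle, lay at 83.5 to 162 CPM in SHAM (median 110.4) and 152 to 840.2 CPM in IR+Decursin (median 288) (log2 fold change 1.62 ± 0.51, adjusted p = 0.0263). Library 4 was highest and 5 of 6 were above SHAM, but Myh7 lost its call without IR+Decursin 4, SHAM 1 or SHAM 6. Gdf15, a stress cytokine, lay at 0.565 to 0.948 CPM in SHAM (median 0.804) and 0.957 to 2.22 CPM in IR+Decursin (median 1.79) with no overlap (log2 fold change 1.12 ± 0.29, adjusted p = 0.00692). The natriuretic peptide genes did not pass: Nppa lay at 158 to 365 CPM in SHAM (median 206) and 139 to 1319.8 CPM in IR+Decursin (median 375) (adjusted p = 0.133), and library 6 held its highest value. Nppb lay at 104 to 167 CPM in SHAM (median 139) and 139 to 372 CPM in IR+Decursin (median 166) (adjusted p = 0.19). The skeletal actin gene Acta1 (-0.78 ± 0.45, adjusted p = 0.205) did not pass.

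Genes of mitochondrial energy production fell together, by modest amounts. All 26 tested nuclear subunits of respiratory complex I fell (median -0.49), by 0.37 to 0.67, and 18 of them fell with total-count scaling. Ndufa5 lay at 346 to 439.6 CPM in SHAM (median 379.9) and 195 to 333 CPM in IR+Decursin (median 232) (log2 fold change -0.67 ± 0.11, adjusted p = 0.000447). Ndufs6 lay at 281 to 348 CPM in SHAM (median 315) and 150.4 to 280.4 CPM in IR+Decursin (median 198) (log2 fold change -0.59 ± 0.12, adjusted p = 0.00154). For both genes the groups did not overlap, though library 6 lay just under the lowest SHAM library. Ndufb6 fell by 0.58 ± 0.11 and Ndufb5 by 0.52 ± 0.11, with library 6 inside the SHAM range. Of 30 subunits of complexes II to V, 28 fell and none rose (median -0.47), with 20 under total-count scaling. The exceptions were Sdhc (-0.24) and Atp5d (-0.26). Cox7a1, the muscle form of an oxidase subunit, lay at 465 to 686 CPM in SHAM (median 548) and 203 to 507 CPM in IR+Decursin (median 306) (log2 fold change -0.76 ± 0.16, adjusted p = 0.00238). Cox5a fell by 0.51 ± 0.11, and the ATP synthase subunits Atp5j and Atp5h by 0.53 ± 0.10 and 0.54 ± 0.11.

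RNA of the mitochondrial genome fell as well. Of 13 protein-coding mitochondrial genes, 11 fell and none rose (median -0.58), and 11 fell with total-count scaling. Mitochondrial genes took 28.4% to 32.8% of counts in SHAM and 20.9% to 27.5% in IR+Decursin. The oxidase subunit gene COX3 lay at 773 to 1275 CPM in SHAM (median 999.98) and 409.9 to 686 CPM in IR+Decursin (median 481) (log2 fold change -1.02 ± 0.16, adjusted p = 0.000378). COX2 lay at 873 to 1904 CPM in SHAM (median 1382) and 459 to 819.9 CPM in IR+Decursin (median 640.0) (log2 fold change -1.12 ± 0.24, adjusted p = 0.00272). The groups did not overlap for either gene. The complex I gene ND5 lay at 28857 to 40828 CPM in SHAM (median 37348) and 21579 to 32302 CPM in IR+Decursin (median 24002) (log2 fold change -0.55 ± 0.13, adjusted p = 0.00421), and library 6 alone was inside the SHAM range. ATP6 fell by 1.15 ± 0.27. ATP8 lay at 22 to 329 CPM in SHAM (median 27.4) and 7.55 to 15.8 CPM in IR+Decursin (median 10.1) (log2 fold change -2.86 ± 0.73, adjusted p = 0.00924), but SHAM 1 alone was at 329 CPM, and without it ATP8 differed by -1.34. ATP8 and ATP6 overlap on the mitochondrial genome, as do ND4L and ND4, so the split of reads between them is uncertain.

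Among 25 genes that carry pyruvate into the citric acid cycle or run it, 16 fell and none rose (median -0.39), and 10 fell with total-count scaling. Sucla2, a subunit of succinyl-CoA synthetase, lay at 698 to 854 CPM in SHAM (median 772) and 393 to 667 CPM in IR+Decursin (median 486) (log2 fold change -0.63 ± 0.12, adjusted p = 0.00115). The pyruvate carrier Mpc2 and the pyruvate dehydrogenase subunits Pdhb and Pdhx fell by 0.63, 0.64 and 0.56, each with an error of 0.11 to 0.12. The pyruvate dehydrogenase kinase Pdk4 (-1.11) did not pass. Of 28 genes of fatty acid uptake and oxidation, 20 fell and none rose (median -0.41), and with total-count scaling 11 fell and 2 rose. Hadhb, a subunit of the trifunctional protein of beta-oxidation, lay at 1560.4 to 1962 CPM in SHAM (median 1668) and 964 to 1439 CPM in IR+Decursin (median 1206) (log2 fold change -0.50 ± 0.11, adjusted p = 0.00297). Hadh, a dehydrogenase of the same pathway, lay at 576 to 691 CPM in SHAM (median 608) and 263 to 549 CPM in IR+Decursin (median 399) (log2 fold change -0.63 ± 0.14, adjusted p = 0.00228). The groups did not overlap for either gene. The electron carrier Etfa and the isomerase Eci2 fell by 0.50 ± 0.11 and 0.46 ± 0.10. The transporter Cd36 (-0.25) and the carnitine transferase Cpt1b (-0.05) did not pass.

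Of 17 genes that break down branched-chain amino acids and ketones, 13 fell and none rose (median -0.42). With total-count scaling 9 fell and 1 rose, with a median of -0.22. Dbt, the core of the branched-chain dehydrogenase, lay at 79 to 98.4 CPM in SHAM (median 88.2) and 49.2 to 74.1 CPM in IR+Decursin (median 63.4) with no overlap (log2 fold change -0.50 ± 0.09, adjusted p = 0.000807). Hibch and Acad8 of valine breakdown fell by 0.52 and 0.51, and Oxct1, which activates ketones, by 0.53. Some glycolysis genes rose and some fell, in shares not far above those of all tested genes, 17.5% and 11.8%. Of 20 tested genes, Slc2a1, Hk1, Pgam1 and Eno1 rose, and Gapdh, Pgam2, Eno3 and Ldhb fell, with a median of -0.08. With total-count scaling 7 rose and 2 fell, and the median turned to 0.14. Slc2a1, the glucose transporter of most cell types, lay at 11.8 to 16.9 CPM in SHAM (median 15) and 18.1 to 24.4 CPM in IR+Decursin (median 21.6) with no overlap (log2 fold change 0.56 ± 0.11, adjusted p = 0.00162). The muscle enolase Eno3 lay at 1279 to 1650.1 CPM in SHAM (median 1342) and 604 to 1194 CPM in IR+Decursin (median 888) (log2 fold change -0.66 ± 0.16, adjusted p = 0.00483), also with no overlap, while the general enolase Eno1 rose by 0.46 ± 0.11. The number that fell was 2 without SHAM 1, IR+Decursin 1, 2 or 4, and 8 without IR+Decursin 6. Of 16 transcriptional regulators of energy metabolism, Rxrg fell, by 0.36 ± 0.11, with its call lost under total-count scaling. Ppargc1a (-0.23), Ppara (-0.01), Esrra (-0.21) and Tfam (-0.19) did not pass, and 3 regulators fell without SHAM 6, IR+Decursin 5 or IR+Decursin 6. The median of this list, -0.12, turned to 0.09 with total-count scaling, where 2 rose and none fell.

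**Figure D4:**
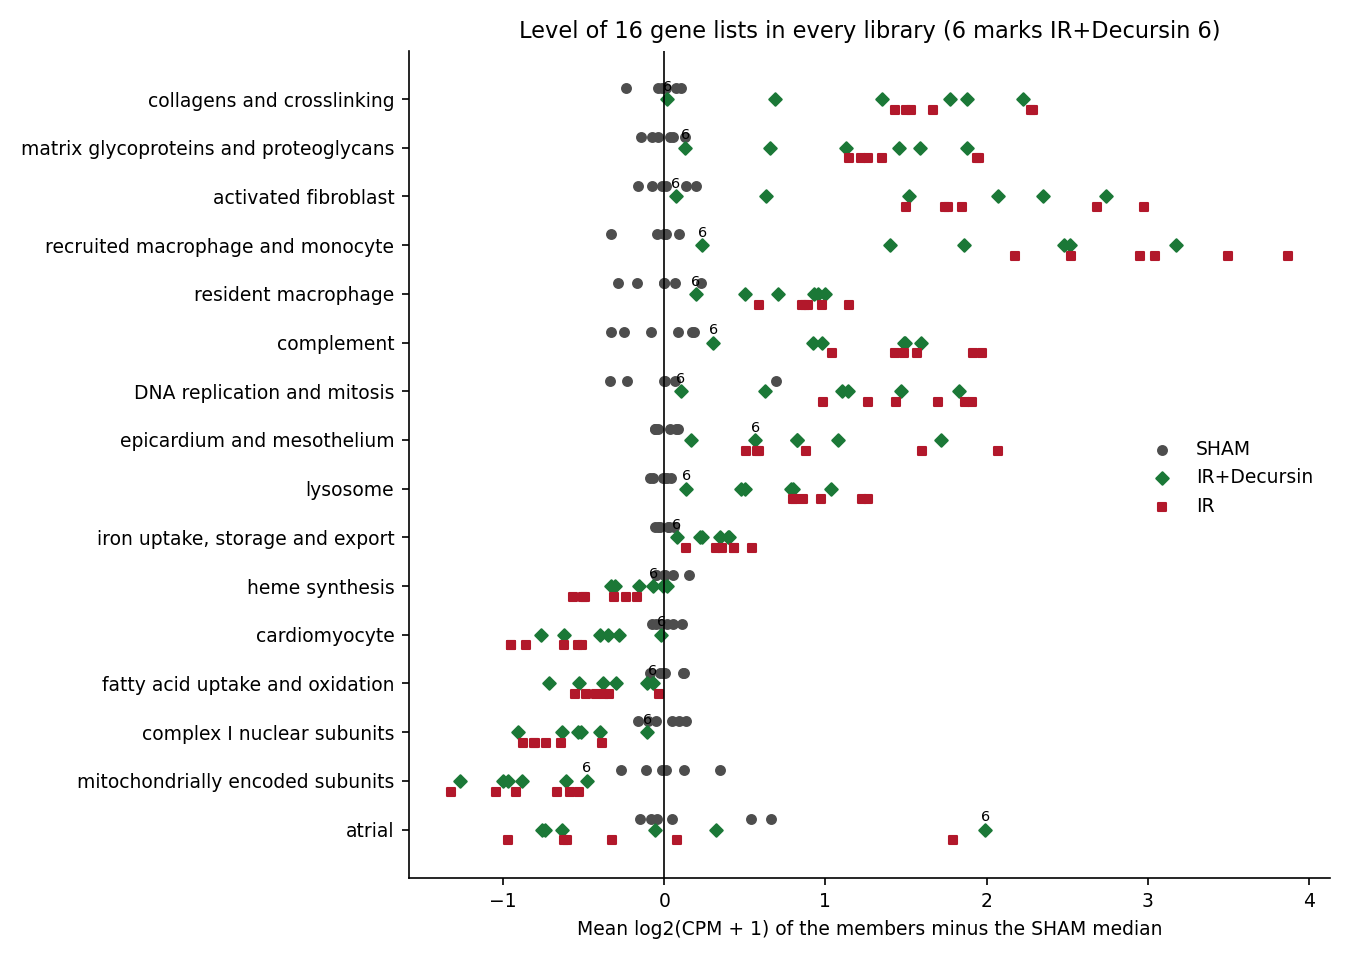
Mean log2(CPM + 1) over the members of 16 lists in each library, as the difference from the SHAM median of that list. Each mark is a library of SHAM, IR+Decursin or IR, and IR+Decursin 6 is numbered. The recruited macrophage, lysosome and complement lists lie above SHAM in all 6 IR+Decursin libraries, and the atrial list is highest in IR+Decursin 6.

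The largest falls among genes whose groups did not overlap were outside the metabolic lists as well as in them. Ddc, which makes dopamine and serotonin, lay at 2.33 to 5.34 CPM in SHAM (median 3.32) and 0.604 to 1.24 CPM in IR+Decursin (median 0.897) (log2 fold change -1.94 ± 0.26, adjusted p = 0.000168). Cngb3, a subunit of a cyclic nucleotide-gated channel, lay at 4.24 to 6.46 CPM in SHAM (median 5.0) and 0.772 to 2.71 CPM in IR+Decursin (median 2.03) (log2 fold change -1.46 ± 0.28, adjusted p = 0.00102). Casq1, the calsequestrin of skeletal muscle, lay at 10.3 to 18.5 CPM in SHAM (median 13.2) and 3.08 to 7.07 CPM in IR+Decursin (median 5.64) (log2 fold change -1.37 ± 0.32, adjusted p = 0.00436). In these 3 genes even IR+Decursin 6 was below every SHAM library. Lgi1, a secreted protein known from neurons, fell by 1.11 ± 0.29, Tmem35a by 1.06 ± 0.22, Fam131a by 0.93 ± 0.21 and the antisense transcript Atcayos by 1.11 ± 0.22. The sources used here do not say whether the counting used strand, so reads of Atcayos and of its partner cannot be told apart.

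**Figure D5:**
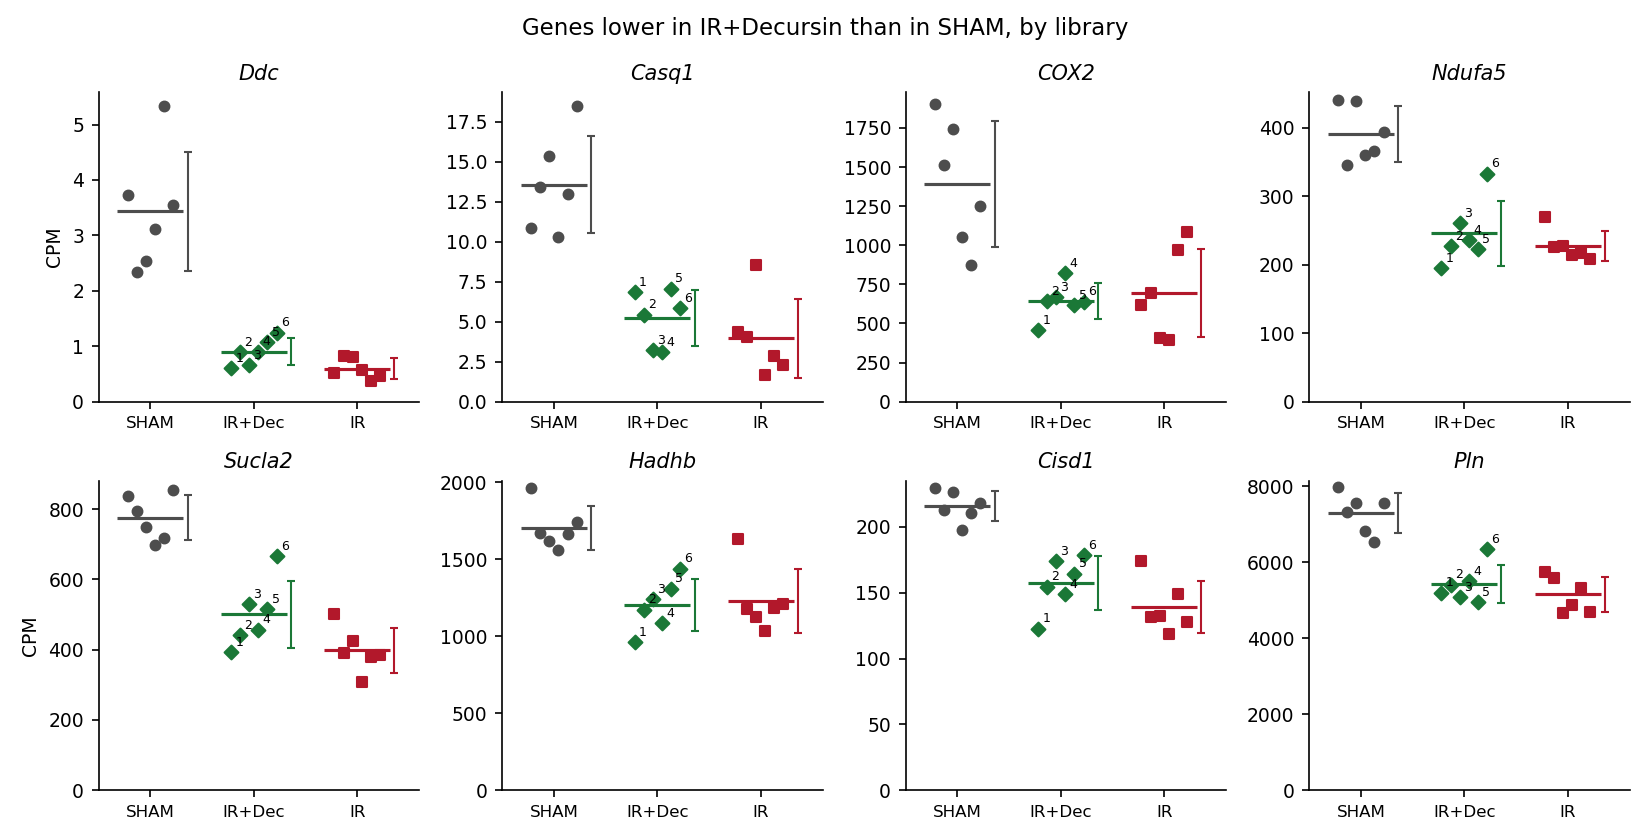
Level in CPM of 8 genes in each library of SHAM, IR+Decursin (numbered 1 to 6) and IR, on linear axes from 0. Lines are group means and bars are standard deviations over 6 libraries. In all 8 genes every IR+Decursin library lies below every SHAM library, and in Ndufa5 and Pln library 6 is the highest of its group.

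Genes of ferroptosis, the process in the title of the series, rose or fell about as often as all tested genes did. Over all tested genes, 17.5% rose and 11.8% fell, 29.3% in all. Of 24 tested genes that promote ferroptosis, 7 rose and 1, Vdac3, fell (median 0.19), and 4 rose without SHAM 1 and 13 with total-count scaling. Without SHAM 1 none fell, without SHAM 4 2 fell, and without IR+Decursin 6 3 fell. The 7 were Alox15, Ptgs2, Cybb, Sat1, Por, Hmox1 and Trp53. Cybb, the NADPH oxidase of phagocytes, lay at 10.9 to 18.7 CPM in SHAM (median 15.4) and 16.8 to 60.5 CPM in IR+Decursin (median 38.9) (log2 fold change 1.42 ± 0.31, adjusted p = 0.0032), and Sat1 of polyamine breakdown rose by 0.60 ± 0.16. The lipoxygenase gene Alox15 lay at 0.0344 to 0.328 CPM in SHAM (median 0.169) and 0 to 5.96 CPM in IR+Decursin (median 0.944) (log2 fold change 3.32 ± 0.83, adjusted p = 0.00649), with library 5 far above the others, and without it the difference was 2.29. Ptgs2 rose by 1.24 and lost its call without IR+Decursin 1 or SHAM 1, 4 or 5. Acsl4, which loads membranes with oxidisable fatty acids, lay at 14 to 16.8 CPM in SHAM (median 15.2) and 14.6 to 29.7 CPM in IR+Decursin (median 19.6) and fell just short of the threshold (log2 fold change 0.45 ± 0.17, adjusted p = 0.0501). It passed with DESeq2 (adjusted p = 0.0406), with limma's quality weights (0.0224), on the 3 FPKM settings, with the 1 CPM filter, in a fit of the 12 libraries alone and with total-count scaling (0.0132). It also passed with factors computed without mitochondrial, haemoglobin and Gm26917 counts, without IR+Decursin 5, without IR+Decursin 6, and without IR+Decursin 6 and IR 1. Over all alternatives its adjusted p ran from 0.0132 to 0.143, the highest without IR+Decursin 1.

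Of 25 genes that restrain ferroptosis, Slc7a11, Slc3a2 and Ftl1 rose, and Dhodh, Coq2, Cisd1 and Prdx6 fell. These shares were not far from those of all tested genes, 17.5% and 11.8%. The median, -0.02, turned to 0.21 with total-count scaling, where 5 rose and 1 fell, and 7 fell without IR+Decursin 6. Gpx4, the enzyme that reduces lipid peroxides, lay at 494 to 586 CPM in SHAM (median 576) and 345 to 559 CPM in IR+Decursin (median 478) and did not pass (log2 fold change -0.27 ± 0.11, adjusted p = 0.0727), but without IR+Decursin 6 its adjusted p was 0.0256. Slc7a11, the cystine transporter, lay at 0 to 0.228 CPM in SHAM (median 0.0172) and 0.0309 to 0.710 CPM in IR+Decursin (median 0.415) (log2 fold change 2.78 ± 0.91, adjusted p = 0.0273). It lost its call without any 1 of 7 libraries: SHAM 1, 2, 3, 4 or 6 and IR+Decursin 1 or 4, and without SHAM 5 the difference was 4.40. Its partner Slc3a2 rose by 0.39 ± 0.10. Cisd1, an iron-sulphur protein of the outer mitochondrial membrane, lay at 198 to 229.8 CPM in SHAM (median 215) and 123 to 179 CPM in IR+Decursin (median 159.6) with no overlap (log2 fold change -0.46 ± 0.10, adjusted p = 0.00193). Dhodh, which reduces ubiquinone in mitochondria, fell by 0.42 ± 0.11, with its call lost under total-count scaling.

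Heme and iron genes moved in different directions. Of 13 heme synthesis genes, 6 fell and none rose (median -0.22), and with total-count scaling none fell and 1 rose, with a median of -0.00. They were Uros, Urod, Cpox, Fech, Abcb10 and Tmem14c. Without SHAM 1, SHAM 6, IR+Decursin 1, 3 or 4, 3 fell, and without SHAM 1 or IR+Decursin 6, 1 rose. Urod (-0.29) lost its call without any 1 of 6 libraries (SHAM 1, 3 or 6 and IR+Decursin 1, 3 or 4). Uros lay at 29.2 to 37 CPM in SHAM (median 34.3) and 21.7 to 29.2 CPM in IR+Decursin (median 25.7) (log2 fold change -0.40 ± 0.09, adjusted p = 0.00306). Cpox lay at 34.2 to 45.2 CPM in SHAM (median 43.5) and 28 to 36 CPM in IR+Decursin (median 30.3) (log2 fold change -0.41 ± 0.11, adjusted p = 0.00695). Alas1, the first enzyme of heme synthesis outside red cells, did not pass (-0.15), and the red cell form Alas2 (1.06, adjusted p = 0.0682) did not either. Of 12 tested genes of heme uptake, breakdown and export, Hmox1, Hp and Lrp1 rose (median 0.29), and 5 to 6 rose without SHAM 3, IR+Decursin 5 or IR+Decursin 6 and 8 with total-count scaling. Heme oxygenase 1 (Hmox1), which opens the heme ring and frees iron, lay at 8.94 to 14.5 CPM in SHAM (median 11) and 10.8 to 99.9 CPM in IR+Decursin (median 45.1) (log2 fold change 2.05 ± 0.48, adjusted p = 0.00529). Library 1 was highest and library 6 was inside the SHAM range. Lrp1, the receptor for heme bound to hemopexin, lay at 153 to 250.4 CPM in SHAM (median 194) and 259.6 to 385 CPM in IR+Decursin (median 311) with no overlap (log2 fold change 0.67 ± 0.12, adjusted p = 0.000655). Haptoglobin (Hp), which binds free haemoglobin, lay at 0.283 to 5.0 CPM in SHAM (median 0.976) and 0.855 to 205 CPM in IR+Decursin (median 69.9) (log2 fold change 5.23 ± 1.25, adjusted p = 0.00638), and its call was lost with limma's quality weights. The exporter Flvcr1 (0.51) and the scavenger receptor Cd163 (0.53) did not pass.

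Of 23 tested genes of iron uptake, storage and export, Trf, Slc11a1, Steap3, Slc39a8, Ftl1, Cp and Lcn2 rose and 1 gene fell (median 0.15), and 15 rose with total-count scaling. Ftl1, the ferritin light chain, lay at 276 to 322 CPM in SHAM (median 296) and 329 to 713 CPM in IR+Decursin (median 528) with no overlap (log2 fold change 0.83 ± 0.16, adjusted p = 0.00121). The heavy chain Fth1 lay at 1383 to 1726 CPM in SHAM (median 1445) and 1273 to 1607 CPM in IR+Decursin (median 1409) and did not pass (log2 fold change -0.07 ± 0.09, adjusted p = 0.631). Ferritin genes have near-identical copies in the mouse genome, and how reads shared with them were counted is not stated. Transferrin (Trf) rose by 0.74 ± 0.14 and Slc11a1, an iron transporter of macrophage phagosomes, by 1.45 ± 0.32. The transferrin receptor Tfrc (-0.33 ± 0.49, adjusted p = 0.657) and the exporter Slc40a1 (0.09 ± 0.18, adjusted p = 0.744) did not pass. Tfrc had its highest value, 318 CPM, in SHAM 1. Of 31 antioxidant genes and targets of the transcription factor NRF2, 5 rose and 6 fell, with a median of 0.00, and 9 rose and 2 fell with total-count scaling. In the main fit these shares were not far from those of all tested genes, 17.5% and 11.8%. The secreted enzymes Gpx3 (0.85 ± 0.14) and Sod3 (0.82 ± 0.14) rose, and the mitochondrial enzymes Sod2 and Prdx3 fell by 0.45 ± 0.10 and 0.47 ± 0.11. The classical NRF2 targets Nqo1 (-0.03), Gclc (0.00) and Txnrd1 (0.10) did not pass.

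Genes that handle foreign compounds, relevant to a drug-treated group, changed in few members. Of 25 tested, Ahr, Por and Ugt1a6a rose and Ephx2 fell, with a median of -0.10 that turned to 0.12 with total-count scaling, where 5 rose and none fell. Ahr, a receptor for foreign aromatic compounds, lay at 7.15 to 9.28 CPM in SHAM (median 8.02) and 10.3 to 13.6 CPM in IR+Decursin (median 11.1) with no overlap (log2 fold change 0.54 ± 0.12, adjusted p = 0.00241). Its target genes Cyp1a1 (-0.48), Cyp1b1 (1.08), Ahrr (-0.22) and Tiparp (-0.08) did not pass. Ugt1a6a rose by 2.33 ± 0.64 with 3 of 6 libraries above SHAM, and since it shares exons with its neighbours the split of reads is uncertain. Por (0.24) lost its call without any 1 of 9 libraries (SHAM 1, 2, 3, 5 or 6 and IR+Decursin 2, 3, 4 or 5). Ephx2 (-0.38) lost it without any 1 of 7 (SHAM 1, 2 or 5 and IR+Decursin 1 to 4) and with total-count scaling. Of 28 heat shock and unfolded protein response genes, Pdia4, Pdia6, Xbp1 and Asns rose and the mitochondrial chaperones Hspd1 and Hspe1 fell (median 0.07), and with total-count scaling 10 rose and 2 fell. Hspd1 lay at 409.6 to 564 CPM in SHAM (median 488) and 268 to 379 CPM in IR+Decursin (median 346) with no overlap (log2 fold change -0.54 ± 0.10, adjusted p = 0.00109). The number that rose ran from 1 to 8 when single libraries were left out, with 8 without SHAM 5. Pdia4 (0.68) lost its call without any 1 of 7 libraries (SHAM 1, 3, 4 or 6 and IR+Decursin 1, 3 or 4). Of 16 circadian clock genes, Bhlhe40 rose, by 0.31, and lost its call without any 1 of 8 libraries (SHAM 1, 2, 3, 5 or 6 and IR+Decursin 1, 2 or 5). The median of the clock list was -0.05, or 0.16 with total-count scaling.

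The genes whose spread in IR+Decursin most exceeded that in SHAM were named as a description, with no test. They were Esr1, Saa3, Ddx3y, Lars2, Eif2s3y, Cthrc1, Arg1 and Cxcl5. Esr1, the estrogen receptor gene, lay at 7375 CPM in IR+Decursin 2, the library with the Xist counts, at 0.720 to 1.41 CPM in the other 5, and at 0.584 to 0.814 CPM in SHAM. Without that library its difference was 0.52 with an adjusted p of 0.898, against 10.75, and its call was also lost without any 1 SHAM library. The Y-linked Ddx3y and Eif2s3y were at 0 in the same library. IR 3 and IR 4 had similar Xist counts (14232 and 14072), and why Esr1 was high in IR+Decursin 2 was not tested. Lars2 lay at 5611 CPM in IR+Decursin 6, the library with the Gm26917 counts, and at 58.1 to 119 CPM in the other 5. It was not called (adjusted p = 0.0501), but it was called when any 1 of IR+Decursin 1 to 5 was left out. Saa3, an acute-phase protein, Arg1, the arginase of wound macrophages, and the chemokine Cxcl5 had medians of 44.2, 14.2 and 13.6 CPM in IR+Decursin. Their lowest values, all in library 6, were 0.272, 0.117 and 0.194 CPM, and their calls were lost with limma's quality weights. Saa3 differed by 8.20, by 7.57 without IR+Decursin 4 and by 8.83 without SHAM 3.

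The IR libraries give the setting for these differences. IR against SHAM shares the SHAM libraries with IR+Decursin against SHAM, so the values are set side by side and are not independent. In IR, 7079 genes (46.9%) differed from SHAM, 3810 (25.3%) higher and 3269 (21.7%) lower. All 26 complex I subunits were lower in both comparisons, with medians of -0.49 for IR+Decursin and -0.72 for IR. The medians were 1.45 and 1.66 for collagens, 2.44 and 3.35 for recruited macrophages, and -0.37 and -0.68 for cardiomyocyte markers. Not every list was nearer to SHAM in IR+Decursin than in IR. The medians were 0.41 and 0.35 for resident fibroblasts, 0.42 and 0.38 for Wnt and insulin-like growth factor signalling, and 1.01 and 0.57 for mast cells. Without IR+Decursin 6, the IR+Decursin medians were 2.64 for recruited macrophages and -0.46 for cardiomyocyte markers. Tnc lay at 59 to 457 CPM (median 144) in IR, Col1a1 at 1964 to 2798 CPM (median 2075) and Timp1 at 83.7 to 166 CPM (median 102). Hmox1 lay at 51.3 to 263 CPM (median 86.1) in IR, where its difference from SHAM was 3.29 ± 0.50 against 2.05 ± 0.48 in IR+Decursin. Myh7 lay at 309 to 3573 CPM (median 1206) in IR, with 3.71 ± 0.56 against 1.62 ± 0.51.

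Compared directly, IR+Decursin and IR differed in 0 genes by edgeR's quasi-likelihood test, with a smallest adjusted p of 0.0883 and 2712 genes (18.0%) at an unadjusted p under 0.05. DESeq2 called 429 genes, 345 higher and 84 lower in IR+Decursin. Without IR+Decursin 1, the edgeR test called 976, of which 696 were higher and 280 lower, and without IR+Decursin 4 it called 2. By edgeR's test Myh7 differed by -2.09 ± 0.52 (adjusted p = 0.0981), Hmox1 by -1.24 ± 0.46 (adjusted p = 0.191), Ftl1 by -0.54 ± 0.16 (adjusted p = 0.129), Col1a1 by -0.47 ± 0.52 (adjusted p = 0.654) and Timp1 by -1.01 ± 0.47 (adjusted p = 0.267). A p above the threshold does not show that decursin-treated and untreated hearts were alike.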

How the data were processed

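RNA-seq was done on 18 mouse hearts, and 12 libraries, IR+Decursin and SHAM, are compared here. The authors deposited whole-number counts per gene symbol and FPKM values of the same libraries, with no units stated beyond the column names, per the file headers. Per the submitters' processing notes, fastp, HISAT2 and HTSeq were used with GRCm39, and no versions, strand setting or treatment of reads that map more than once are given in the sources used here. Gene copies that share reads, overlapping genes and antisense genes are therefore uncertain. No coordinates or sequences were used, since the reference at hand was of another build. Samples were grouped by their treatment labels.

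Counts were tested with edgeR 4.0.16 (R 4.3.3): genes kept by its count filter by group, TMM factors, a robust quasi-likelihood fit of all 18 libraries with 1 mean per group, and Benjamini-Hochberg adjustment over all 15088 genes at 0.05. Standard errors are the log2 fold change divided by the square root of the F statistic. CPM use the TMM factors. List levels are means of log2(CPM + 1) over all members in the table. Depth was 27.5 to 35.0 M counts a library, and replicate libraries differed by more than counting noise (chi-square over its degrees of freedom at least 15.3 for any pair), so none was counted as a repeat.

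Named genes were the 10 largest rises and falls whose groups did not overlap at a mean of at least 2 CPM, up to 4 called members of each list by adjusted p, a panel of 16 genes, and the 8 with the largest excess spread. Members named because they did not pass, or to complete a count, were chosen after their values were seen. The comparison, the lists and the rule were chosen with earlier results of these data known. Alternatives were DESeq2 1.42.0, other scaling factors and filters, limma 3.58.1 on counts with quality weights and on log2(FPKM + 1) and log2(FPKM + 0.1) with or without a mean of at least 1 FPKM, a replicate block, and each of the 12 libraries left out in turn. Others left out libraries with over 1000 Xist counts (IR+Decursin 2, IR 3, IR 4) or over 200000 Gm26917 counts (IR+Decursin 6, IR 1), scaled to the total count, or computed factors without mitochondrial, haemoglobin and Gm26917 counts. Counts within lists without each library were added after the data were seen. Some members of the lists are counted but not reported by name here.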

Additional observations from a re-analysis of the deposited data

Results flagged for a closer look

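In 33 of 394 groups of 6 libraries, 1 library lay farther from the others than Dixon's criterion allows, and chance alone gives such a gap in about 1 in 20 groups.

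IR+Decursin 6 held Gm26917 at 7.54% of its counts, Lars2 at 5611 CPM, Nppa at 1319.8 CPM, ND5 at 32302 CPM, Oxct1 at 1551 CPM and COX3 at 686 CPM, each the highest of the group. Its values of Aldh1a2 (6.10 CPM) and Pgam1 (29.7 CPM) were the lowest of the group. IR+Decursin 1 was far above the other 5 for the macrophage genes Lgals3 (102 CPM) and Gpnmb (85.0 CPM), for Sox9 (12.6 CPM), for Ptgs2 (7.10 CPM) and for Il7r (3.99 CPM). IR+Decursin 2 had 14219 Xist counts and 0 CPM of the Y-linked Ddx3y and 0 of Eif2s3y, with Esr1 at 7375 CPM and the mesothelial keratin Krt19 at 3.01 CPM. IR+Decursin 5 stood apart for Alox15, at 5.96 CPM.

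Among SHAM libraries, SHAM 1 was far from the others for ATP8 (329 CPM), the transferrin receptor Tfrc (318 CPM), Etfa (819.9 CPM) and Trem2 (3.23 CPM). SHAM 5 was apart for Tgfbr2 (75.4 CPM), Myd88 (15.6 CPM), Cd3g (0.228 CPM), Slc7a11 (0.228 CPM) and Flt3 (0.0326 CPM). SHAM 4 was apart for Mcam (58.3 CPM), Mlkl (2.62 CPM) and Lgals3 (1.87 CPM). SHAM 6 was apart for Cma1 (0.894 CPM), and SHAM 2 for Il6 (0.0365 CPM), which is a single count.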

How the results depend on the processing

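The counts of genes that differed between IR+Decursin and SHAM, 2647 higher and 1774 lower, depended most on scaling. The number higher was 4781 with total-count scaling and 4268 on log2(FPKM + 0.1). The number lower was 832 with TMM factors without mitochondrial, haemoglobin and Gm26917 counts, 377 with total-count scaling, 395 on log2(FPKM + 1), 362 on that scale with a mean of at least 1 FPKM, and 387 on log2(FPKM + 0.1). The median of all genes moved by 0.22 with total-count scaling. Under the other settings run, the number higher ran from 2350 to 3936 and the number lower from 1303 to 2477. With 1 library left out in turn, 2169 to 2972 genes were higher and 1292 to 2158 lower, the extremes without IR+Decursin 1 and without IR+Decursin 6. Between IR+Decursin and IR, 0 genes were called by edgeR, 429 by DESeq2, and 0 to 976 with 1 library left out, the highest without IR+Decursin 1. Of 193 named genes, 181 were called, and 164 stayed called without any 1 of the 12 libraries. No named gene reversed its direction in a called result. The cause of these differences was not tested.

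The groups share replicate numbers in the labels. With the replicate number as a block, 2385 genes were higher and 1488 lower than in SHAM, and 0 differed between IR+Decursin and IR. Deviations of same-numbered IR+Decursin and SHAM libraries correlated at -0.21 to 0.0057, and none correlated best with its own number, so no pairing of IR+Decursin with SHAM was seen. Between IR+Decursin and IR, replicates 4 and 5 correlated best with their own number, at 0.30 and 0.41. Replicates 1, 2, 3 and 6 did not. Depth limits low genes: an Il6 level rests on 1 count in SHAM.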
